A study of Mus musculus with 18 samples.

Results

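The enzymes that recover purine bases and nucleosides, and those that break them down, were followed in mouse ESD3 embryonic stem cells in which hypoxanthine guanine phosphoribosyltransferase (HPRT) had been knocked down. The group holds 10 genes, taken by gene symbol: Hprt1, Aprt, Adk, Ada, Gda, Xdh, Ampd1, Ampd2, Ampd3 and Gmpr. Every probe carrying one of these symbols in the array's annotation was taken, which gave 18 of the 45281 probes and 10 of the 30869 symbols. Of the 18 probes, 13 were detected on all 3 arrays of at least 1 condition, and these belong to 8 of the 10 genes. The 5 others never were so detected; they are both probes of Gda, the probe of Xdh, and 1 further probe each of Ampd2 and Ampd3.

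Cells make purine nucleotides either from small precursors, the de novo route, or by salvage of bases and nucleosides that are already formed. HPRT joins hypoxanthine or guanine to phosphoribosyl pyrophosphate and so returns them to the nucleotide pool, APRT does the same for adenine, and adenosine kinase phosphorylates adenosine to AMP. Adenosine deaminase, guanine deaminase and xanthine dehydrogenase lead in the other direction, toward uric acid, while AMP deaminases and GMP reductase convert AMP and GMP to IMP. Loss of HPRT causes Lesch-Nyhan disease, in which uric acid is overproduced and the brain's dopamine system is affected.

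The cells carried an shRNA against luciferase (control) or against HPRT (knockdown). The labels name a retrovirus and the study's methods a puromycin-selected lentiviral vector whose shRNA was directed at the human gene. ESD3 cells come from mouse strain 129s2/SvPas. Each line was sampled as undifferentiated cells on a layer of mouse embryo fibroblasts (ES), as spherical neural masses (SNM) and at the end of a protocol for dopaminergic neurons (neuronal stage). RNA of replicate cultures was pooled for each of the 6 conditions and hybridised to 3 Illumina MouseWG-6 v2 arrays, 18 in all. The SDs and tests below therefore hold the error between arrays alone, and how far cultures vary was not measured. Each array detected 18827 to 22202 probes, and arrays of a condition correlated at 0.989 to 0.996. All 8 pluripotency markers were detected at the ES stage, and of 10 neuron markers 8 were detected on all 3 control arrays and 7 on all 3 knockdown arrays at the neuronal stage, with Snap25 and Nefl on no array of either line and Tubb3 on none of the knockdown arrays. Levels are given as log2 of the background-corrected and normalized signal.

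In ES cells HPRT knockdown lowered Hprt1, and no other member was called changed. At the SNM stage Hprt1 was lower and Gmpr higher in knockdown cells. At the neuronal stage Hprt1 and Ampd1 were lower and Ampd3 and Ada higher. A gene counted as called when its brightest probe passed a Benjamini-Hochberg adjusted p of 0.05 in limma over all tested probes with a change of at least 1.5-fold. The members called were 1 of the 8 tested at the ES stage, 2 of 7 at the SNM stage and 4 of 8 at the neuronal stage. Over all probes tested, 1.68%, 19.9% and 27.4% were called at these stages. On the adjusted p alone, with no limit on the fold, the counts were 1 of 8, 6 of 7 and 5 of 8 members, beside 11.3%, 52.7% and 58.1% of all probes. The median log2 change of the tested members was -0.07, -0.38 and 0.18 at the ES, SNM and neuronal stage, beside 0.01, -0.04 and 0.01 for all tested probes. These counts and medians include Hprt1, the target of the shRNA, whose fall is set by the design. At the SNM stage the other tested members changed by -0.53 (Adk), -0.48 (Aprt), -0.38 (Ada), 0.19 (Ampd2), 0.46 (Ampd3) and 1.14 (Gmpr).

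**Figure D1:**
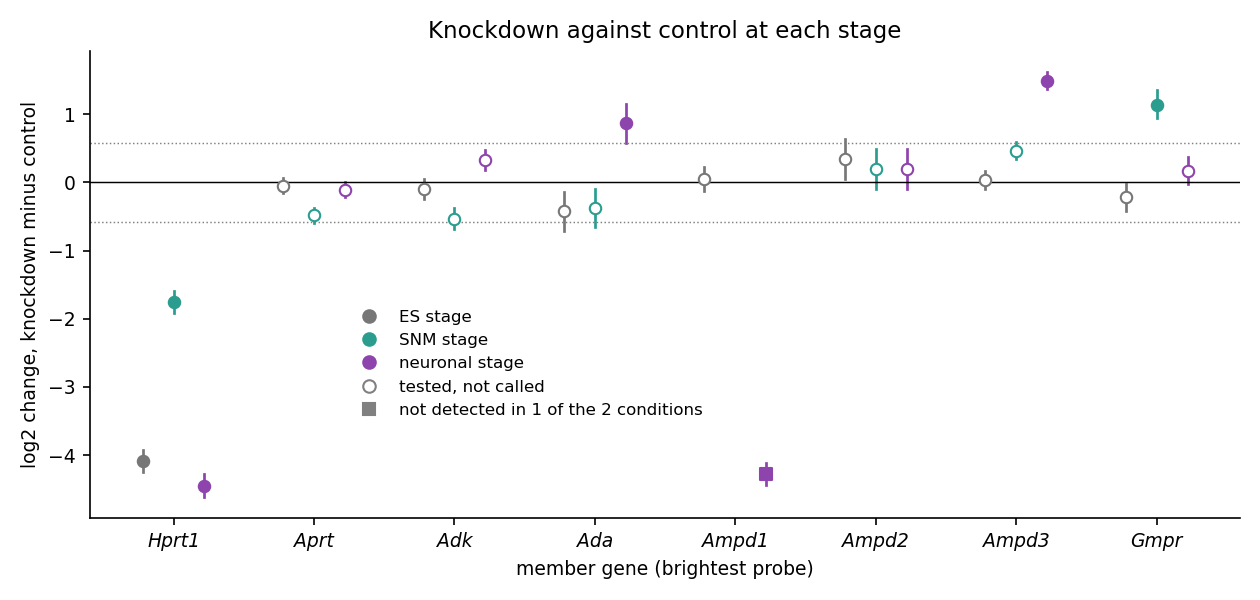
Log2 change of each detected member between HPRT-knockdown and control cells at the ES, SNM and neuronal stage, for its brightest probe. Points are the fitted changes, bars the 95% confidence intervals from the array error, filled points called changes, the square a gene detected on no knockdown array, and dotted lines a change of 1.5-fold; Ampd1 was not tested at the SNM stage. Hprt1 lies at -4.09, -1.76 and -4.45, and the other members lie within 1.5 log2 units of zero apart from Ampd1 at the neuronal stage.

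The sequences ahead of the transcription starts are shown for both phosphoribosyltransferase genes, whose brightest probes were detected on all 18 arrays, and for Gda, which was detected on none. They are the 250 bases before the start that RefSeq gives on GRCm38.p6, in the direction of transcription, with the GC box (GGGCGG on either strand, so also CCGCCC) in capitals.
Hprt1 (chrX:52987828-52988077, plus strand): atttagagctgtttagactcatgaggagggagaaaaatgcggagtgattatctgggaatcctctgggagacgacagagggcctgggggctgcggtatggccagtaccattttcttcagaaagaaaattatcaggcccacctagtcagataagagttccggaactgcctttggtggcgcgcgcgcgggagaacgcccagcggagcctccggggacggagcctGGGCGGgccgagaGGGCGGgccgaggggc
Aprt (chr8:122576908-122577157, minus strand): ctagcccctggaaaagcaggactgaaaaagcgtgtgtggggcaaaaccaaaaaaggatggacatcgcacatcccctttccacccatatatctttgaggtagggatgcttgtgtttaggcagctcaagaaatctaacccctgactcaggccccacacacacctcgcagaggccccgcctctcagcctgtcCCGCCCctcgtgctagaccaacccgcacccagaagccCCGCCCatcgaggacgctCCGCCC
Gda (chr19:21472662-21472911, minus strand): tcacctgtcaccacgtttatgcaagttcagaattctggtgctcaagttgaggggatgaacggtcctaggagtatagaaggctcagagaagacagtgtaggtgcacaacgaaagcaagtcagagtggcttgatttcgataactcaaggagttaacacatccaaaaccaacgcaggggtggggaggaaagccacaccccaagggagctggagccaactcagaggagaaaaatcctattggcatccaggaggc
The Hprt1 window held 2 GC boxes, the Aprt window 3 and the Gda window 0, and their GC contents were 59.6%, 58.4% and 50%. Starts were listed for 8 of the 10 genes, and 6 of these 8 had a GC box at 1 or more starts: Hprt1, Aprt, Adk, Ada, Ampd2 and Gmpr. By start, 7 of 12 windows of the members (58.3%) and 32.7% of 32851 windows of the reference held the motif. The 3 windows of Ampd3 held none, and its brightest probe was detected on every array. A relation between the motif and detection was not tested. The median GC content of all windows was 52.4%.

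Hprt1 (listed as Hprt in RefSeq, on chromosome X), the targeted gene, was lower in knockdown than in control cells at all 3 stages and least so at the SNM stage. Control ES cells gave 12.04, 12.07 and 12.00 on the 3 arrays, and knockdown ES cells 8.14, 7.96 and 7.75. In SNM cells the values were 11.23, 11.23 and 11.13 against 9.34, 9.47 and 9.50. On the neuronal-stage arrays they were 11.08, 11.03 and 11.03 against 6.56, 6.64 and 6.60. No knockdown array reached a control array at any stage. The log2 changes were -4.09 ± 0.08 (SE; adjusted p = 7.15e-15), -1.76 ± 0.08 (3.86e-11) and -4.45 ± 0.08 (9.64e-17), which are changes of the signal by -94.1%, -70.5% and -95.4%.

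The knockdown effect differed between stages. It was smaller at the SNM than at the ES stage by 2.33 ± 0.11 (SE) on the log2 scale (adjusted p = 2.17e-10). It was larger again at the neuronal stage, with a difference from the SNM stage of -2.69 ± 0.11 (adjusted p = 7.21e-12). Both lines contributed to the first of these differences, and the knockdown line to the second. In control cells Hprt1 fell by 0.84 from the ES to the SNM stage (adjusted p = 5.1e-08), and the further change of -0.15 to the neuronal stage was not past the threshold (adjusted p = 0.108). In knockdown cells it rose 2.8-fold from the ES to the SNM stage (adjusted p = 2.68e-11) and then fell 7.14-fold (adjusted p = 5.07e-14). These comparisons share the SNM arrays. The order of the 6 conditions was control ES, control SNM, control neuronal, knockdown SNM, knockdown ES and knockdown neuronal, and no neighbours in it overlapped.

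The other 2 Hprt1 probes gave the same directions. The next brightest changed by -4.07 in ES cells, -1.94 in SNM cells and -4.38 at the neuronal stage. The dimmest changed by -4.37 and -1.88 at the ES and SNM stages. In neuronal-stage knockdown cells it was detected on no array and was at least 11.3-fold lower (means of 8.24 and 4.53 in control and knockdown cells, adjusted p = 1.4e-12). Fibroblast markers, which feeder cells would carry, were measured beside it. At the ES stage their summed linear signal was 664 to 730 in control and 687 to 777 in knockdown cells, with Col1a1, Lum and Postn detected on no array of either. Among SNM arrays it was 6360 to 6920 and 7710 to 9110, and 3 of the 7 markers were called higher in knockdown cells. By the neuronal stage it was 20600 to 23900 and 10800 to 14100, with 6 of 7 called lower. The part of such cells in the remaining Hprt1 signal was not tested. In bulk RNA, fewer cells that express a gene and less of its RNA per cell cannot be told apart.

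**Figure D2:**
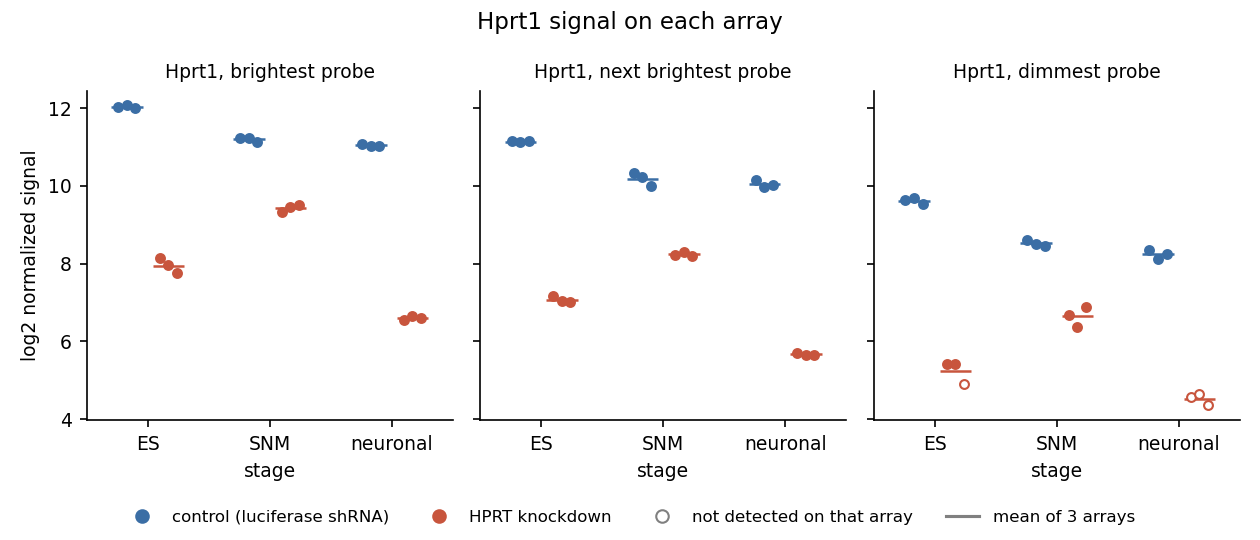
Log2 normalized signal of the 3 Hprt1 probes on each of the 18 arrays, by stage, with control cells on the left and knockdown cells on the right of each pair and a line at the mean of 3 arrays. On every probe the knockdown arrays lie below the control arrays, and the gap is narrowest at the SNM stage, where the brightest probe averaged 11.20 in control and 9.44 in knockdown cells.

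Aprt, the adenine phosphoribosyltransferase, varied least of the detected members in these normalized values, by 0.53 log2 units between its highest and its lowest condition. Ampd2 was close to it, at 0.54. Its mean in control cells was 12.00 ± 0.02 (SD, 3 arrays) at the ES, 11.95 ± 0.02 at the SNM and 11.85 ± 0.04 at the neuronal stage. In knockdown cells it was 11.95 ± 0.09, 11.47 ± 0.02 and 11.74 ± 0.05. At the ES stage the change of -0.05 was not past the threshold (adjusted p = 0.583, 95% interval -0.16 to 0.06). In SNM cells all 3 knockdown arrays (11.45, 11.48 and 11.46) lay below the control arrays (11.92 to 11.97). That difference of -0.48 ± 0.05 (SE) passed the adjusted p (9.68e-07) and was 1.4-fold, under the 1.5-fold required for a call. The neuronal-stage change was -0.11 (adjusted p = 0.0702). From the ES to the SNM stage knockdown cells changed by -0.48 (limma adjusted p = 2.49e-07), under the size of a call. This step was called at -0.87 with scaling to the 75th percentile and at -0.61 with no normalization between arrays. In the order of the means, knockdown SNM cells stood lowest, with knockdown neuronal cells next above, and neither overlapped its neighbours, whereas control SNM, knockdown ES and control neuronal cells overlapped in turn.

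Adk encodes adenosine kinase, which turns adenosine into AMP. In control cells it rose 1.75-fold from the ES to the SNM stage (10.28 to 11.09, adjusted p = 2.21e-08) and fell 2.02-fold to the neuronal stage (10.07, adjusted p = 3.1e-09). The 3 control SNM arrays (11.04, 11.13 and 11.09) were above those of every other condition. Knockdown cells stayed between 10.18 and 10.56 over the 3 stages. Below control SNM, the means ran through knockdown SNM, knockdown neuronal, control ES and knockdown ES, each overlapping the next, to control neuronal cells, which stood apart at the low end. Neither step in knockdown cells was called, with changes of 0.37 and -0.15 (adjusted p = 0.000125 and 0.0686).

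Knockdown cells were lower in Adk than control cells at the SNM stage (10.56 and 11.09) and higher at the neuronal stage (10.40 and 10.07). These changes of -0.53 ± 0.07 and 0.33 ± 0.07 (SE) passed the adjusted p (9.15e-06 and 0.000664) at less than 1.5-fold. The difference between them, 0.86 ± 0.10, was called (adjusted p = 2.14e-06). The dimmer Adk probe ran the same way, with -0.76 at the SNM stage, which was called, and 0.37 at the neuronal stage. The probes disagreed on the step from the ES to the SNM stage in knockdown cells, where the dimmer probe changed by -0.17 (adjusted p = 0.0514). In control cells the dimmer probe rose by 1.43-fold on that step, under the size of a call.

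Ada encodes adenosine deaminase, which turns adenosine into inosine. Its signals were near the detection limit. In knockdown SNM and in control neuronal cells 2 of 3 arrays detected its brighter probe and 1 of 3 its dimmer probe. At the ES stage the brighter probe read 6.04, 6.11 and 6.16 in control and 5.76, 5.67 and 5.62 in knockdown cells. This change of -0.42 narrowly missed the threshold (adjusted p = 0.0525). The dimmer probe gave -0.51 with an adjusted p of 0.00748, again under 1.5-fold. In SNM cells the change was -0.38 (adjusted p = 0.0261), also under 1.5-fold.

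The direction was the opposite at the neuronal stage. Control arrays read 5.06, 4.45 and 4.73 and knockdown arrays 5.74, 5.58 and 5.51, with no overlap. Ada was 1.82-fold higher in knockdown cells (log2 change 0.87 ± 0.13 SE, adjusted p = 3.61e-05), and its dimmer probe 1.68-fold higher (adjusted p = 2.08e-05). Without background correction the change was 0.40 or 0.44, under the size of a call. The knockdown effect differed from that at the SNM stage by 1.24 ± 0.19 (adjusted p = 4.71e-05), and by 0.56, under the size of a call, with quantile normalization and no background correction. Along the stages, Ada fell 1.9-fold in control cells and 1.84-fold in knockdown cells from ES to SNM (adjusted p = 1e-05 and 1.49e-05). From SNM to the neuronal stage it rose 1.75-fold in knockdown cells (adjusted p = 6.73e-05), while control cells changed by -0.43 (adjusted p = 0.0103), under the size of a call. Without background correction these called steps also fell short of 1.5-fold, at -0.47 or -0.58 for control and -0.40 or -0.55 for knockdown cells from ES to SNM and 0.37 or 0.41 for the later rise, as did both falls with no normalization between arrays (-0.56 in each line). Control ES cells were highest (6.10), and the arrays of knockdown ES and knockdown neuronal cells (5.68 and 5.61), and of knockdown SNM and control neuronal cells, overlapped.

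The enzymes that lead from guanine and hypoxanthine to uric acid were below detection. Gda, guanine deaminase, averaged between 4.34 and 4.53 in the 6 conditions on one probe and between 4.31 and 4.42 on the other. Xdh, xanthine dehydrogenase, averaged between 4.26 and 4.46. No array detected either gene, so no change was tested and their RNA, if present, was under the limit of these probes. Pnp1, the purine nucleoside phosphorylase that stands between the nucleosides and these bases, was likewise detected on no array.

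The 3 AMP deaminases differed in how they moved. Ampd2, a form found in many tissues, was detected on all 18 arrays and was called in no comparison. Its means lay between 5.83 and 6.37, and all neighbouring conditions in the order of its means overlapped. Its knockdown changes were 0.35 in ES cells, 0.19 in SNM cells and 0.20 at the neuronal stage (adjusted p = 0.125, 0.265 and 0.244). The 95% interval at the ES stage ran from 0.05 to 0.64 and so took in changes above 1.5-fold.

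Ampd1, the form of skeletal muscle, was detected by its brighter probe in ES cells and in control cells at the neuronal stage. ES values were 5.89, 6.12 and 6.01 in control and 6.01, 6.11 and 6.07 in knockdown cells, which overlapped (change 0.05, adjusted p = 0.735). Among SNM samples 1 of 3 arrays of each line detected it, with means of 4.73 and 4.67, and the lines were not tested against each other. The neuronal-stage control arrays read 8.83, 8.68 and 8.72. The knockdown arrays read 4.48, 4.52 and 4.39, none of them detected. Ampd1 was therefore at least 16-fold lower in knockdown cells, with measured means of 8.74 and 4.46 and a limma adjusted p of 1.89e-16. The bound sets the control mean against the lowest signal detected on each knockdown array or the probe's own, whichever was higher. The dimmer probe was at least 7.85-fold lower (adjusted p = 5.71e-11). In ES cells this dimmer probe was detected on 1 of 3 control and 2 of 3 knockdown arrays (means of 4.82 and 5.12). It was not tested there or between the ES and the SNM stage.

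In control cells Ampd1 fell from ES to SNM by a fitted 2.42-fold (adjusted p = 3.47e-10) and was higher at the neuronal than at the SNM stage (8.74 and 4.73, adjusted p = 6.03e-16). As 1 of 3 SNM arrays detected it, the fitted 16.1-fold depends on values near background; the dimmer probe, detected on no SNM array, was at least 7.76-fold higher (adjusted p = 7.14e-11). In knockdown cells it fell from ES to SNM by a fitted 2.62-fold (adjusted p = 8.42e-11) and was not detected afterwards. The knockdown effect at the neuronal stage differed from that at the SNM stage by a fitted -4.21 ± 0.11 (SE, adjusted p = 3.16e-14). This size rests on arrays below or near detection and was -2.79 and -2.83 without background correction.

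Skeletal muscle markers, a list chosen knowing that muscle genes differed in these data, moved with Ampd1 at the neuronal stage. The summed linear signal of 15 markers was 91900 to 93800 on control arrays, all 15 being detected, and 543 to 689 on knockdown arrays, where Tnnt3, Ckm, Myog and Myod1 were detected on none. In the limma fit 14 of the 15 were called lower. In SNM cells the sum was 1970 to 2040 in control and 3610 to 3890 in knockdown cells, with 10 of 14 tested markers higher; Ampd1 was near the detection limit there and was not tested. In ES cells, where the brighter Ampd1 probe was detected in both lines, the sum was 1910 to 2080 in control and 1950 to 2200 in knockdown cells. There 9 of the 15 markers were detected on all 3 arrays of each line, and Tnnt3, Tnni1, Ckm, Myog and Myod1 were detected on none. The part of muscle cells in the Ampd1 difference was not tested.

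Ampd3, first known from red blood cells, took the opposite course at the neuronal stage. In ES cells the lines overlapped (7.13, 7.11 and 7 in control, 7.07, 7.11 and 7.18 in knockdown cells). In SNM cells control arrays read 6.42, 6.42 and 6.58 and knockdown arrays 6.88, 6.92 and 7.01. The log2 change of 0.46 passed the adjusted p (7.08e-06) at 1.38-fold, under the size of a call. The neuronal-stage values were 8.02, 8.03 and 7.99 against 9.48, 9.50 and 9.55. Ampd3 was thus 2.82-fold higher in knockdown cells (log2 change 1.49 ± 0.06 SE, adjusted p = 2.53e-12). The effect exceeded that at the SNM stage by 1.03 ± 0.08 (adjusted p = 3.71e-08).

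From SNM to the neuronal stage Ampd3 rose in both lines, 2.92-fold in control cells (adjusted p = 2.2e-12) and 5.96-fold in knockdown cells (adjusted p = 8.62e-15). From ES to SNM it fell 1.52-fold in control cells (adjusted p = 9.68e-08), and this call was lost, at a change of -0.58, without control ES array 1, control SNM array 1 or control SNM array 2. It was also lost without normalization between arrays (change -0.18, adjusted p = 0.16). The conditions ran from knockdown neuronal (9.51) through control neuronal (8.02), knockdown ES (7.12), control ES (7.08) and knockdown SNM (6.94) to control SNM (6.47). The arrays of knockdown ES and control ES, and of control ES and knockdown SNM, overlapped. The second Ampd3 probe was detected on no array.

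**Figure D3:**
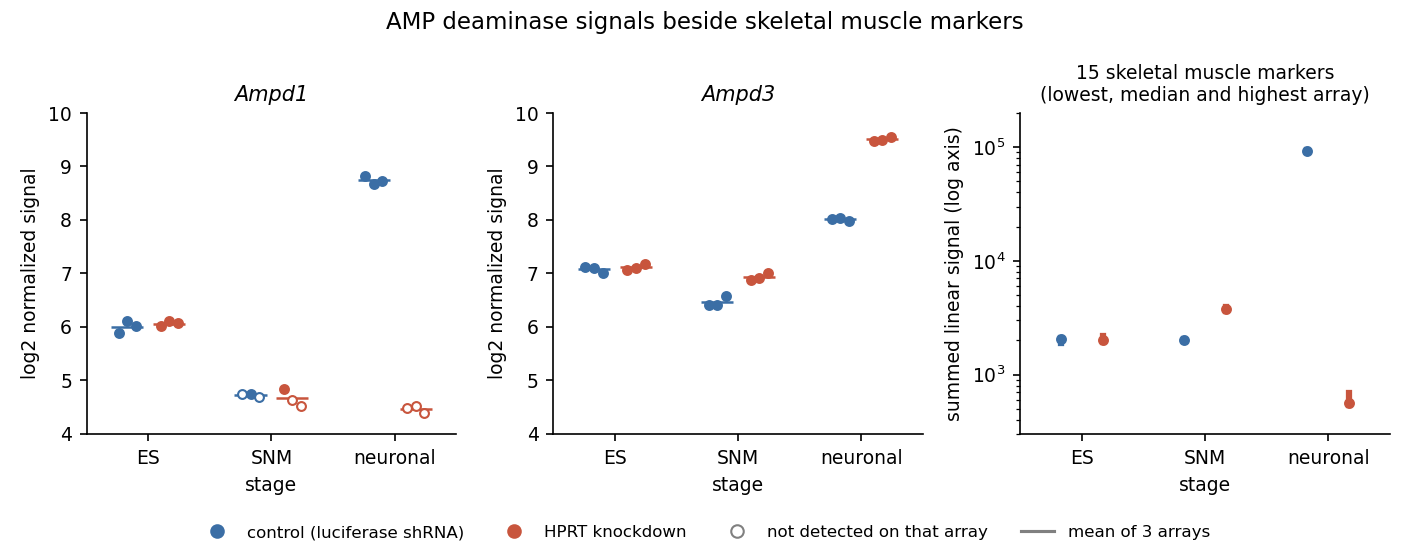
Log2 normalized signal of Ampd1 and Ampd3 on each array by stage, with open points where the probe was not detected, beside the summed linear signal of 15 skeletal muscle markers on a log axis (point: median array, bar: lowest to highest array). At the neuronal stage Ampd1 and the markers were high in control cells and low in knockdown cells, while Ampd3 was higher in knockdown cells (9.51 against 8.02).

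At the same stage oligodendrocyte markers also differed between the lines. All 10 were called higher in knockdown cells, and their summed signal was 10700 to 10900 in control and 87200 to 90800 in knockdown cells, with Mog detected on no control array. Astrocyte markers summed to 13900 to 15200 and 18300 to 19100, with 6 of 9 called higher and 1 lower. Neuron markers summed to 10700 to 11600 in control and 4100 to 4370 in knockdown cells, with 6 of 8 tested called lower and a median log2 change of -2.01. Pluripotency markers summed to 9820 to 10200 and 3920 to 4280, with 7 of 7 tested called lower and a median of -1.92. Endoderm markers summed to 346 to 372 in control and 604 to 664 in knockdown cells, with 3 of 4 tested called higher and 0 lower. Afp and Gata4 were detected in neither line. Of 3 tested endothelium markers 2 were called lower, and of 3 tested trophoblast markers 1 was called higher and 2 lower. The part of these cell types in the Ampd3 and Ada signals was not tested.

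Gmpr, GMP reductase, which turns GMP into IMP, rose earlier in knockdown than in control cells. In ES cells the values were 6.66, 6.82 and 6.84 in control and 6.53, 6.47 and 6.65 in knockdown cells (change -0.22, adjusted p = 0.148). In SNM cells they were 7.04, 7 and 6.87 against 8.28, 8.14 and 7.92, with no overlap. Gmpr was thus 2.21-fold higher in knockdown SNM cells (log2 change 1.14 ± 0.09 SE, adjusted p = 6.09e-08). At the neuronal stage the lines overlapped, at 8.39, 8.41 and 8.31 against 8.55, 8.68 and 8.38 (change 0.17, adjusted p = 0.134, 95% interval -0.03 to 0.37).

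The knockdown effect on Gmpr thus rose by 1.37 ± 0.13 (SE) from ES to SNM (adjusted p = 8.85e-07) and fell by 0.97 from SNM to the neuronal stage (adjusted p = 1.66e-05). In knockdown cells Gmpr was 2.96-fold higher at SNM than at ES (adjusted p = 1.87e-10) and changed by a further 0.42 to the neuronal stage (adjusted p = 0.00105), under the size of a call. In control cells the ES to SNM change was 0.20 (adjusted p = 0.0687), or 0.64 and called with no normalization between arrays (adjusted p = 8.68e-06), and the change from SNM to the neuronal stage was a rise of 2.63-fold (adjusted p = 2.71e-09). At the SNM stage astrocyte markers summed to 15400 to 17000 in control and 22700 to 23900 in knockdown cells (4 of 9 called higher) and endoderm markers to 317 to 335 and 985 to 1060 (4 of 5 tested called higher). Afp and Gata4 were detected on no array of either line. Skeletal muscle and fibroblast markers were called higher in 10 of 14 and 3 of 7 tested. Oligodendrocyte and pluripotency markers were called lower in 5 of 9 and 4 of 7. Of 8 tested neuron markers 2 were called higher and 2 lower. The part of these cell types in the Gmpr signal was not tested. In the order of the 6 means, from knockdown neuronal (8.54) to knockdown ES cells (6.55), the pair of neuronal-stage conditions was the only one whose neighbouring arrays overlapped.

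**Figure D4:**
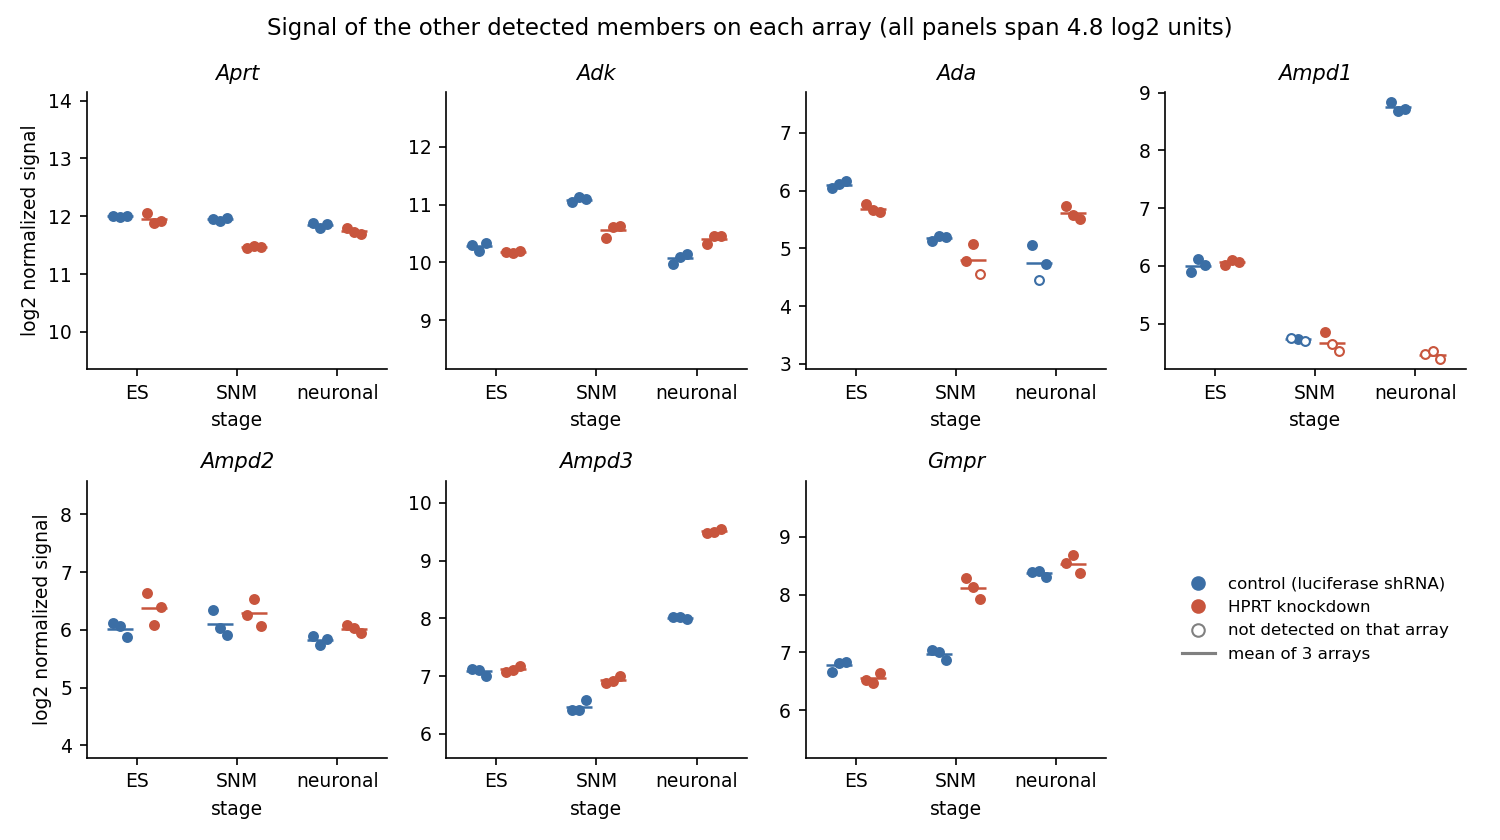
Log2 normalized signal of the other 7 detected members on each of the 18 arrays by stage, control cells left and knockdown cells right of each pair, with the mean of 3 arrays as a line, open points where the probe was not detected, and an equal span on every vertical axis. Gmpr separates the lines at the SNM stage (6.97 and 8.11) and Ampd1, Ampd3 and Ada at the neuronal stage, whereas Aprt and Ampd2 stay within 0.53 and 0.54 log2 units over all conditions.

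Across differentiation of control cells, 5 of the 8 members tested were called between ES and SNM (Adk higher; Hprt1, Ada, Ampd1 and Ampd3 lower), beside 49.1% of all probes. Between SNM and the neuronal stage 4 of 8 were called (Ampd1, Ampd3 and Gmpr higher; Adk lower), beside 29.4%. In knockdown cells 4 of 8 were called on the first step (Hprt1 and Gmpr higher; Ada and Ampd1 lower), beside 57.3%. On the second step 3 of 7 were called (Ada and Ampd3 higher; Hprt1 lower), beside 28.6%. The difference of the knockdown effect was called for 2 of 8 members between ES and SNM (Hprt1, the shRNA target, and Gmpr, both upward), beside 21.3%. It was called for 6 of 8 between SNM and the neuronal stage (Ada, Adk and Ampd3 upward; Hprt1, Ampd1 and Gmpr downward), beside 28.6%. The 2 steps of a line share its SNM arrays. On the adjusted p alone the counts were 5 of 8 and 5 of 8 members for the steps of control cells (75.8% and 61.6% of all probes), 7 of 8 and 5 of 7 for those of knockdown cells (81% and 60.5%), and 5 of 8 and 7 of 8 for the differences of the effect (40.6% and 47%).

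The rest of purine metabolism was described by 3 lists. At the ES stage no gene of any list was called by limma: 0 of 11 tested genes of other salvage and breakdown, 0 of 14 of nucleotide interconversion and 0 of 10 of de novo synthesis. At an unadjusted p under 0.05 the counts were 3, 5 and 5. The methods' t-test called 0 in each list, whether paired or not and adjusted or not. The list medians were 0.02, -0.08 and -0.13, beside 0.01 for all tested probes, of which 0.516% were called higher and 1.17% lower.

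At the SNM stage the calls in the de novo list ran downward, with 3 of 10 genes lower and 0 higher and a list median of -0.54, beside a median of -0.04, 11% called higher and 8.9% called lower for all tested probes. In the same samples pluripotency markers summed to 10400 to 11300 in control and 7260 to 7650 in knockdown cells, with 4 of 7 tested called lower, Fgf4 detected in neither line and a median of -0.78, and their part in the list's values was not tested. Adsl, which acts both in that route and in making AMP from IMP, fell by 52.9% (9.52 to 8.44 between control and knockdown cells, adjusted p = 2.1e-08). Ppat, which carries out the committed step of de novo synthesis, fell by 50.1% (8.95 to 7.94, adjusted p = 5.91e-09). In the interconversion list 3 of 14 were lower and 0 higher, Adsl among them, with Adssl1, an adenylosuccinate synthase of muscle, at -0.77 (adjusted p = 1.12e-07). Muscle markers ran the other way in these samples, with 10 of 14 tested called higher in knockdown cells, and their part in Adssl1 was not tested. Among the other salvage and breakdown genes 1 of 12 was higher and 2 were lower. The median of this list was -0.11 and that of the interconversion list -0.2. Nt5e, the ectoenzyme that makes adenosine from AMP outside the cell, was 1.54-fold higher (adjusted p = 0.0038). Ahcy, which releases adenosine from S-adenosylhomocysteine, fell by 51.3% (adjusted p = 1.33e-09), and Mtap, which recovers adenine from methylthioadenosine, by 44.5% (adjusted p = 9.28e-08).

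At the neuronal stage the calls ran both ways. Nt5e was 3.76-fold higher in knockdown cells (5.94 and 7.85 in control and knockdown cells, adjusted p = 3.51e-08), while the cytosolic nucleotidase Nt5c2 was 2.97-fold lower (adjusted p = 1.08e-08) and Ahcy 1.59-fold lower (adjusted p = 1.13e-07). Of 13 tested genes of that list, 1 was higher and 2 were lower. In the interconversion list 3 of 15 were higher and 3 lower. The adenylate kinase Ak5 was 1.93-fold and Gmpr2, the second GMP reductase, 1.62-fold higher (adjusted p = 3.86e-06 and 1.55e-06). Adssl1 was 3.68-fold and Ak1, an adenylate kinase abundant in muscle, 2.11-fold lower (adjusted p = 7.27e-13 and 5.38e-07). The muscle markers of these samples are given above, and the part of muscle cells in these differences was not tested. In the de novo list 3 of 10 were lower and 0 higher. Prps1, which makes phosphoribosyl pyrophosphate, fell by 48.5% (adjusted p = 6.73e-11) and Adsl by 42.9% (adjusted p = 3.4e-07). The medians of the 3 lists were -0.01, -0.22 and -0.13, beside a median of 0.01, 13.9% called higher and 13.5% called lower for all tested probes.

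**Figure D5:**
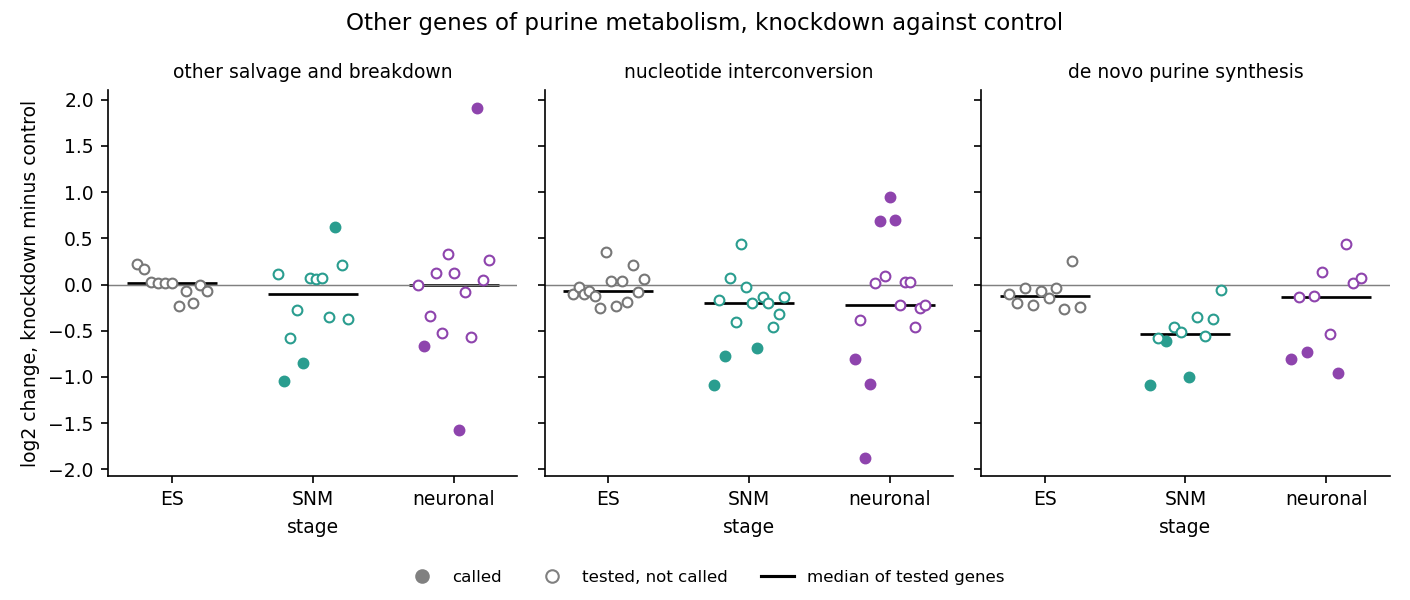
Log2 change between knockdown and control cells of each tested gene of 3 lists of purine metabolism at the ES, SNM and neuronal stage, with called genes filled and the list median as a black line. At the ES stage no gene of the lists was called, and at the SNM stage the de novo genes lie below zero, with a median of -0.54.

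The genes whose condition means followed those of the members most closely were taken from 12866 probes that were detected in at least 1 condition and spanned at least 1 log2 unit. Pearson's r was over 6 condition means, which all come from the same 18 arrays, and is given as a description. For Hprt1 they were Slco3a1 (r = 0.9462), Slmo2 (0.9071), Acly (0.8630), Cited2 (0.8451) and Iqgap2 (0.8416). The span of Slco3a1 was 1.11 log2 units and that of Hprt1 5.44. For Ampd1 they were Trim54 (0.9988) and Actn3 (0.9929), with 1 transcript known by a clone name between them (0.9943). For Ampd3 they were Wdr92 (0.9960), Pnpla2 (0.9915) and LOC241385 (0.9902). For Gmpr they were Rnf11 (0.9959), Rasl10b (0.9945) and Wif1 (0.9933), and for Ada Arfgef1 (0.9809), March6 (0.9764) and Hltf (0.9724).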

How the data were processed

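The authors deposited a table of 18 arrays with the average bead signal intensity of each probe, not background-subtracted or normalized, and a detection p-value beside it. Probe symbols came from a second deposited table, whose 72 columns of per-sample values are named by chip and were not used. Conditions and array numbers were read from the sample titles. The neqc function (limma 3.58.1, R 4.3.3) takes the background from the detection p-values, adds an offset of 16, quantile-normalizes and gives log2 values. One limma model of 6 conditions was fitted to all probes and arrays. Probes entered a comparison if all 3 arrays of at least 1 of its conditions had a detection p below 0.05. For a difference of the knockdown effect these conditions were both lines at both stages. Probes were called at a two-sided Benjamini-Hochberg adjusted p under 0.05 and at least 1.5-fold. A gene is its brightest probe over all arrays. The model was tested on simulated data. The 3 arrays of a condition share an RNA pool and their number limits the precision; an exact permutation test of 3 against 3 cannot go below p = 0.1.

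The members and lists were chosen with earlier results of these data known. All members are named, with up to 2 largest rises and 2 largest falls among called genes of each list, and the genes most like Hprt1 (5) and like each other member called between the lines (3). Equal array numbers deviated together between the lines at the SNM stage (correlations of 0.11 to 0.49) and between SNM and neuronal knockdown cells (0.14 to 0.52). In the 5 other comparisons the lowest correlation was 0.06, 0.09 or below 0, and the highest lay between 0.1 and 0.61. The number as a block was an alternative. The others were other background corrections and scalings, other detection filters and fold limits, a mean over probes, a fit on the compared conditions, the methods' t-test and leaving out each array. Sequences are RefSeq's on GRCm38.p6. The RNA-Seq experiment was not analysed here.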

Additional observations from a re-analysis of the deposited data

Results flagged for a closer look

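The knockdown effect, the log2 change of knockdown against control cells, differed between stages for 6 members, by limma with Benjamini-Hochberg adjustment over all tested probes. Between the ES and the SNM stage the effect on Hprt1 shifted by 2.33 (adjusted p = 2.17e-10), as knockdown arrays rose from 7.95 to 9.44 while control arrays fell from 12.04 to 11.20. The effect on Gmpr shifted by 1.37 (adjusted p = 8.85e-07), from -0.22 to 1.14.

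Between the SNM and the neuronal stage the shift was -2.69 for Hprt1 (adjusted p = 7.21e-12), 0.86 for Adk (adjusted p = 2.14e-06), 1.24 for Ada (adjusted p = 4.71e-05; 0.56 and under 1.5-fold by quantile normalization without background correction), -4.21 for Ampd1 (adjusted p = 3.16e-14), 1.03 for Ampd3 (adjusted p = 3.71e-08) and -0.97 for Gmpr (adjusted p = 1.66e-05). Adk and Ada were lower in knockdown cells at the SNM stage and higher at the neuronal stage. The shift of Ampd1 is a fitted value of a gene detected on no knockdown array at the neuronal stage and on 1 of 3 SNM arrays of each line. These shifts, and those of the paragraph above, share the SNM arrays.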

How the results depend on the processing

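No called change of a member turned its direction under any alternative. With the array number as a replicate block the same members were called in all 9 comparisons, and the probes called went from 310 to 320 at the ES stage, from 4127 to 4223 at the SNM stage and from 5732 to 5774 at the neuronal stage. The block changed no call of a member. Leaving out single arrays gave Hprt1 changes of -4.17 to -3.97 at the ES, -1.8 to -1.72 at the SNM and -4.48 to -4.43 at the neuronal stage. It left 1, 2 and 4 members called between the lines at these stages, 4 to 5 for control cells from ES to SNM and 4 from there on, 4 and 3 for the steps of knockdown cells, and 2 and 6 for the differences of the effect.

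Without a minimum fold, 6 members instead of 2 were called at the SNM stage, 7 instead of 4 for knockdown cells from ES to SNM, 5 instead of 3 from there on, and 5 instead of 2 for the effect difference between SNM and ES. With it at 2-fold, 1 instead of 5 was called for control cells from ES to SNM. Either scaling without background correction gave 3 there, as Ada and Ampd3 fell below 1.5-fold. At the SNM stage 4 members instead of 2 were called by scaling to the 75th percentile or with no normalization between arrays, Aprt and Adk being added. Ada at the neuronal stage was under 1.5-fold without background correction (log2 changes of 0.40 and 0.44), as were its called steps along the stages. With no normalization between arrays the median of all probes from ES to SNM moved from -0.08 to 0.19 in control and from -0.11 to 0.12 in knockdown cells. The probes called between the lines went from 4127 to 2326 and 2452 at the SNM stage and from 5732 to 3690 and 3760 at the neuronal stage without background correction. In ES cells these settings called 57 and 56 probes instead of 310, and the share of calls that were higher went from 30.6% to 55.6% (216 calls) with no normalization between arrays.

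The methods' t-test at an unadjusted p of 0.05 and 1.5-fold called 294, 4018 and 5623 probes unpaired and 228, 3886 and 5477 paired at the 3 stages. After adjustment it called 78, 3730 and 5480 unpaired and 0, 2325 and 4541 paired. Paired and adjusted, it called 0 members at the ES stage, where Hprt1 changed by -4.09 with an adjusted p of 0.198 (1.58e-23 to 0.0128 under the other alternatives), and Ada was not called at the neuronal stage (adjusted p = 0.063, otherwise 3.93e-06 to 0.026) or between SNM and neuronal knockdown cells (0.072, otherwise 2.38e-06 to 0.0225). Without a minimum fold the lists of other salvage, interconversion and de novo genes had 1, 2 and 0 calls at the ES, 8, 9 and 9 at the SNM and 7, 11 and 5 at the neuronal stage. With the 2-fold limit they had 1, 1 and 2 in SNM cells, then 2, 2 and 0. Signals of Gda, Xdh, Ada and Ampd1 at or near background bound what can be said of them.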
